A study of Gallus gallus with 13 samples.

Results

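The genes described here are those of the cytosolic ribosomal proteins, followed through RNA sequencing of chicken limb cell cultures that carried a limb transcription factor or an empty virus. Members were taken by name from the deposited expression table: every entry labelled RPL, RPS or RPLP with a number, or the matching UniProt chicken name, without the RPS6K kinases. Each Ensembl gene was represented by its transcript of highest mean level. This gave 51 genes of 16737 in the table, chosen by label, while the mean level only set which transcript stands for a gene; 32 belong to the large (60S) subunit and 19 to the small (40S) subunit. Among them are 3 paralogues named as like another member, RPS27L, RPL22L1 and RPL3L. No entry carried the label RPL11, so that gene is not described. Some entries carry no label at all, so further ribosomal protein genes may be missing from the group. Shares and counts below are those of the labelled members.

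Ribosomal proteins are the protein part of the ribosome, which joins amino acids according to mRNA. The small subunit reads the codons and the large subunit forms the peptide bonds, and both need nearly every protein in equal amounts. In vertebrates the mRNAs of these proteins begin with a terminal oligopyrimidine (TOP) tract, through which growth signals set how strongly they are translated. In the developing limb and skeleton they are known from inherited ribosome disorders with skeletal defects and from mouse mutants with altered body patterning.

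The cultures were micromass cultures, in which limb bud cells plated at high density condense and turn into cartilage; they were made from limb buds of chicken embryos at Hamburger-Hamilton stage 24 and kept for 9 days. All of them received an RCASBP(A) avian retrovirus before plating. The insert was 3xFLAG-tagged mouse Hoxd13 as wild type (HOXD13 wt), the same gene with a homeodomain glutamine changed to lysine (Q317K) or arginine (Q317R), 3xFLAG-tagged chicken PITX1 (wild type), or nothing (empty vector). Of 13 samples in the series, 5 were RNA libraries, 1 for each virus, and the others were chromatin samples, not used here. Whether a library came from pooled cultures or embryos is not stated in the labels.

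With 1 library per virus there was no replicate to test against, so higher and lower below describe these libraries, and no p-values are given. Levels are in RPKM, which scales reads to transcript length and library size. Intervals in brackets are 95% exact binomial intervals on read numbers recovered from the RPKM values and cover counting error only. Totals per library lay between 14069766 reads for Q317K and 16793118 for Q317R. The chicken PITX1 entry reached 10233 RPKM with the PITX1 virus, against 24.8 to 64.5 in the other libraries. The chicken HOXD13 entry was read at 63.4 in HOXD13 wt, 53.7 in Q317R and 36.8 in Q317K, against 16.6 in the empty vector and 13.1 in PITX1, and how far reads of the mouse insert fell on it is not known. All 6 cartilage markers were present in every library, and their summed level was 18023 RPKM in the empty vector, 13533 in Q317R, 5097 in HOXD13 wt, 4094 in PITX1 and 2382 in Q317K.

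Ribosomal protein mRNAs were among the most abundant in the cultures. The median of the members' mean levels was 271 RPKM, against 10.4 over all genes, and 47 of the 51 averaged at least 100 RPKM. Of the 100 genes with the highest mean level 14 were labelled members, and of the 500 highest 45 were. The 48 members without the 3 like-named paralogues ran from 68.7 RPKM for RPS21 to 1282 for RPLP0, an 18.7-fold range. The subunits were similar in level, with a median of 260.0 RPKM for the large and 273 for the small. Each member was read by between 77 reads (RPL3L in Q317K) and 20489 (RPS2 in Q317K), with a median of 2637, so counting error was small for most of them.

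**Figure D1:**
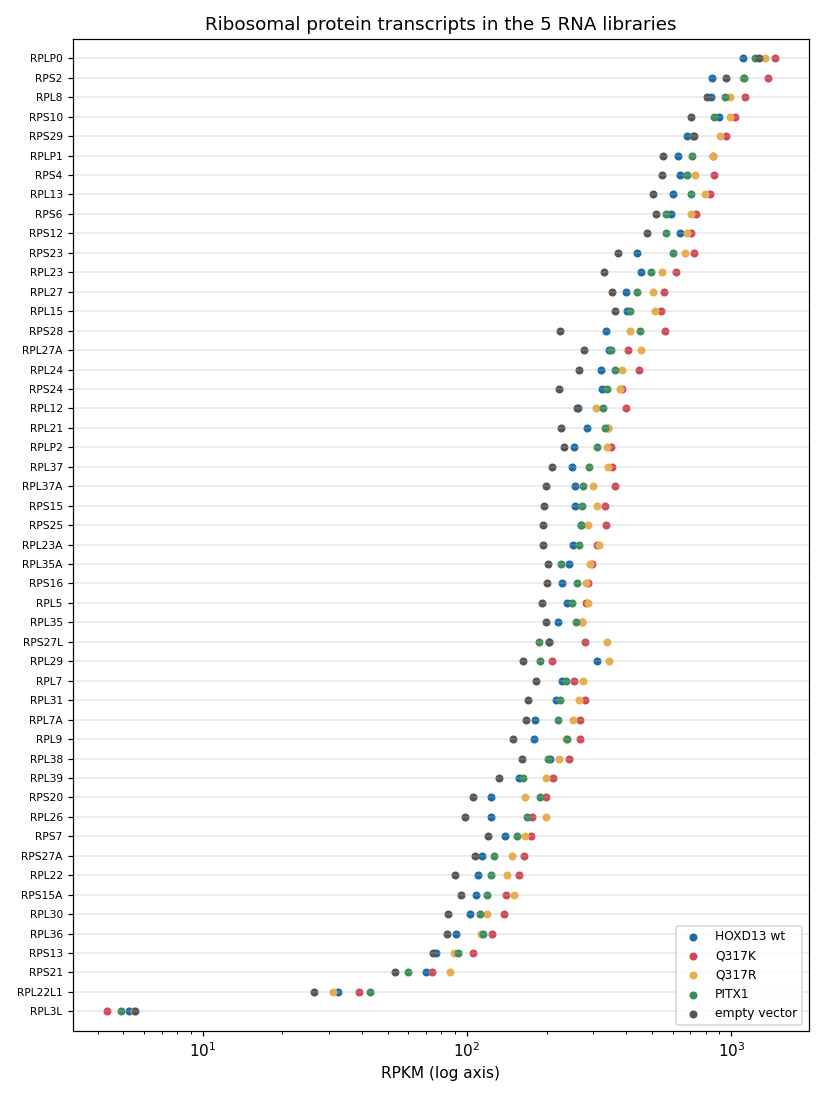
Level of 50 of the 51 ribosomal protein genes in the 5 RNA libraries, in RPKM on a log axis, with 1 point per library and genes ordered by mean level from RPLP0 at the top to RPL3L at the bottom. Over all 51 genes the empty vector is the lowest library for 46 and Q317K the highest for 37.

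The highest level belonged to RPLP0, the base of the stalk through which the ribosome recruits translation factors. It was read at 1464 RPKM in Q317K and 1335 in Q317R, against 1270 in the empty vector, 1230 in PITX1 and 1111 in HOXD13 wt. Next came RPS2, a small subunit protein beside the mRNA entry channel, at 1380 in Q317K, 1116 in PITX1, 1110.0 in Q317R, 952 with the empty virus and 843 in HOXD13 wt. For both genes the HOXD13 wt library was the lowest, below the empty vector. RPL8, which lies close to the peptidyl transferase centre, followed at 1124 RPKM in Q317K, 991 in Q317R, 948 in PITX1, 836 in HOXD13 wt and 809 in the empty vector. RPS10, RPS29 and RPLP1 made up the rest of the 6 highest, with mean levels of 895, 795 and 718 RPKM.

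The lowest core members were RPS21 at a mean of 68.7 RPKM, RPS13 at 87.4, RPL36 at 105 and RPL30 at 111. RPS21 was read at 86.2 RPKM in Q317R, 74.0 in Q317K, 70.1 in HOXD13 wt, 59.9 in PITX1 and 53.5 in the empty vector. Core members differed little between libraries compared with the differences between genes. Over all 51 genes the coefficient of variation across the 5 libraries had a median of 18.3% and ran from 9.70% to 32.6%. The ratio of the highest to the lowest library had a median of 1.59 and reached 2.50, for RPS28.

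Transcript length had little relation to level. Lengths were recovered from the RPKM values, as the smallest that made all reads of a gene whole. They ran from 189 bases for RPL29 to 1263 for RPL3L, with a median of 576 against 1328 over all genes. Across the 51 genes log2 length and log2 mean RPKM had a Pearson correlation of 0.04 and a Spearman correlation of 0.15. For the 48 members without the like-named paralogues the values were 0.25 and 0.19. The genes share the same libraries, so this is a description. Sequencing fragments were selected at 300 to 500 bp. A recovered length under 300 bases was found for 4 members: RPL29, RPS27L at 208, RPL36 at 294 and RPS29 at 295. RPKM divides by transcript length, which cancels in a gene's ratio between libraries. Shorter members nevertheless tended to have higher ratios to the empty vector in some libraries: across the 51 genes log2 length and the log2 ratio had a Pearson correlation of −0.39 with Q317R, −0.31 with HOXD13 wt, −0.15 with Q317K and −0.04 with PITX1. The Spearman values were −0.30, −0.28, −0.15 and −0.16. The part of length in the ratios was not tested.

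The comparisons with the empty vector asked how each factor altered the culture's mRNA; all 4 use the same empty vector library, so a deviation of that library enters each of them. Ratios are log2 of (RPKM + 1) over (RPKM + 1), and all 51 members passed the minimum of 5 RPKM in either library. Ribosomal protein mRNAs were higher in every factor library, most in the mutants. The median log2 ratio was 0.60 in Q317K, 0.56 in Q317R, 0.37 in PITX1 and 0.25 in HOXD13 wt, or 1.51-fold, 1.47-fold, 1.29-fold and 1.19-fold. The medians over all genes tested were −0.01, 0.02, −0.05 and −0.03. In bulk RNA, more cells of a type and more RNA per cell cannot be told apart, nor can fewer cells and less RNA per cell.

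With Q317K, 49 of the 51 genes were at least 25% higher than in the empty vector on this scale and 0 were at least 20% lower, the same fold in reverse; among 12720 genes tested the shares were 20.6% and 26.1%. With Q317R, 44 were higher and 0 lower, beside 20.9% and 19.0% of 12842 genes. With PITX1 the numbers were 30 and 0, beside 17.2% and 27.2% of 12698 genes. HOXD13 wt had 14 higher and 0 lower, beside 20.4% and 25.5% of 12840 genes, so at this threshold its count was not far above that share. Its members nevertheless lay mostly above 0: 46 of 51 had a log2 ratio above 0, against 47.5% of all genes. The same count was 50 for Q317K (48.7% of all genes), 50 for Q317R (51.8%) and 47 for PITX1 (45.3%).

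The differences were small in size and close together. Few members reached 2-fold. They were RPS28 in Q317K, beside 2.14% of all genes, and RPL29 and RPL26 in Q317R, beside 1.89%. In PITX1 only RPS28 did, beside 1.97%, and in HOXD13 wt 0 members, beside 2.28%. Counts this low were near the shares of all genes. No member was 2-fold lower in any factor library, beside 2.87%, 2.08%, 2.80% and 2.62% of all genes in Q317K, Q317R, PITX1 and HOXD13 wt. The members' log2 ratios had an interquartile range of 0.21 with Q317K, 0.21 with Q317R, 0.22 with PITX1 and 0.20 with HOXD13 wt. Over all genes tested, which include many of far lower level, it was 0.60, 0.52, 0.56 and 0.59.

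**Figure D2:**
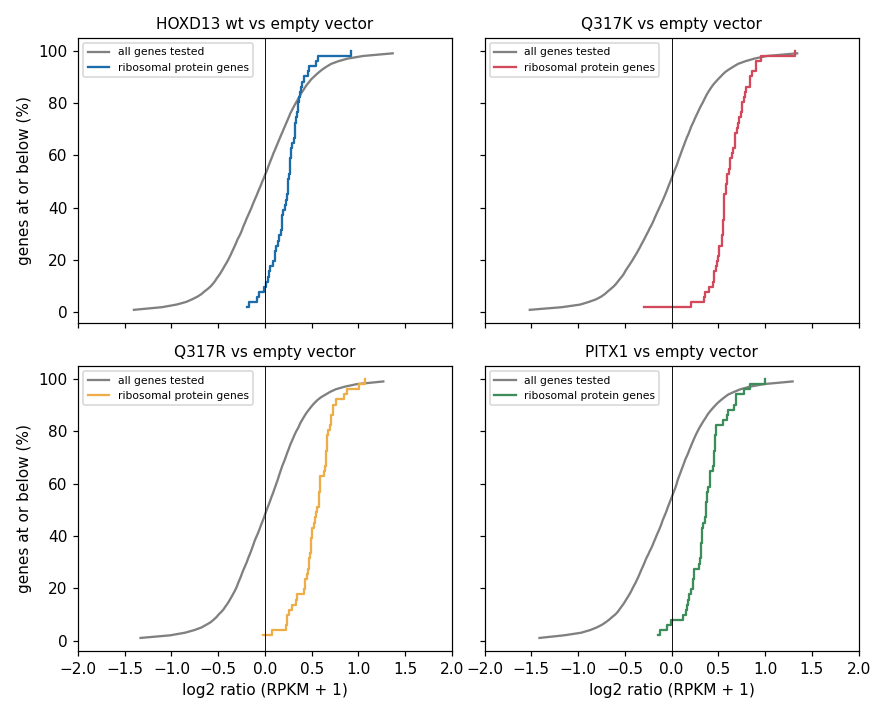
Cumulative share of genes (percent, vertical) at or below each log2 ratio to the empty vector (RPKM + 1, horizontal), for the 51 ribosomal protein genes (coloured steps) and all genes tested (grey), with 1 panel for each factor library. The coloured curves are steep and lie mostly to the right of 0, with medians of 0.60 (Q317K), 0.56 (Q317R), 0.37 (PITX1) and 0.25 (HOXD13 wt).

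Of each library's reads, summed over 1 transcript per gene, the 51 labelled members took 1.27% (1.26 to 1.27) in the empty vector. In HOXD13 wt they took 1.38% (1.38 to 1.39). The share was 1.54% (1.53 to 1.55) in PITX1, 1.73% (1.72 to 1.73) in Q317R and 1.85% (1.84 to 1.86) in Q317K. Relative to the empty vector these shares were 1.09 times, 1.22 times, 1.36 times and 1.46 times as large. A few very abundant transcripts moved as well. The 20 highest genes outside the group held 12.4% of reads in the empty vector, 12.6% in PITX1, 12.8% in Q317R and 13.5% in Q317K. In HOXD13 wt they held 17.0%. The highest of them, LOC768852, was read at 44704 RPKM in HOXD13 wt, 20805.5 to 22055 in the other factor libraries and 15599 in the empty vector. The cartilage collagen COL2A1 alone held 2.73% in the empty vector, 1.98% in Q317R, 0.741% in HOXD13 wt, 0.599% in PITX1 and 0.344% in Q317K. With those 20 genes left out the ribosomal protein share was 1.45%, 1.67%, 1.76%, 1.98% and 2.14% in the empty vector, HOXD13 wt, PITX1, Q317R and Q317K, and the ratios to the empty vector were 1.15, 1.22, 1.37 and 1.48.

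**Figure D3:**
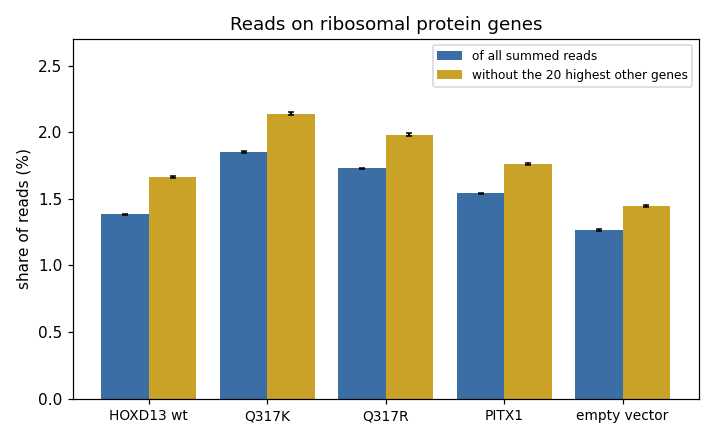
Share of summed reads on the 51 ribosomal protein genes in each RNA library (percent, axis from 0), of all reads (blue) and without the 20 highest other genes (yellow); error bars are 95% exact binomial intervals covering counting error only. Both sets of bars are lowest in the empty vector (1.27% and 1.45%) and highest in Q317K (1.85% and 2.14%).

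The median ratio was above 0 for both subunits in every factor library. With Q317K the median log2 ratio to the empty vector was 0.60 for the large and 0.56 for the small subunit, and 30 of 32 and 19 of 19 members were at least 25% higher, beside 20.6% of all genes. In Q317R the medians were 0.58 and 0.50, with 27 of 32 and 17 of 19, beside 20.9%. In PITX1 they were 0.39 and 0.32, with 22 of 32 and 8 of 19, beside 17.2%. In HOXD13 wt they were 0.27 and 0.23, with 7 of 32 and 7 of 19, beside 20.4%, so the count of the large subunit was near the share of all genes. The ratio of reads on large subunit genes to reads on small subunit genes stayed between 1.29 in Q317K and 1.36 in the empty vector.

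Each member's order of libraries is a way to read the same data without a threshold; these counts were added after the levels had been seen. Q317K was the highest library for 37 members and Q317R for 12, while over 13201 genes with at least 5 RPKM in any library the shares were 19.0% and 20.6%. The empty vector was the lowest for 46 members, beside 25.9% of all genes. Both mutants stood above the other 3 libraries for 41 members, beside 9.41% of all genes. HOXD13 wt was the lowest library for RPLP0, RPS2 and RPS29, beside 19.8% of all genes, and the highest for 0 members, beside 18.5%. PITX1 was the lowest for RPS27L, beside 22.8%, and the highest for RPL22L1, beside 12.6%. RPL3L was highest in the empty vector, beside 29.3% of all genes, and lowest in Q317K, beside 21.6%. Q317R was the lowest for 0 members, beside 9.99%.

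A set of 10 members was at least 25% higher than the empty vector in all 4 factor libraries, beside 4.20% of all genes: RPL7, RPL23, RPL23A, RPL31, RPL37A, RPL38, RPS15, RPS24, RPS25 and RPS28. RPS28, a small subunit protein at the mRNA exit channel, had the widest range of all members. It was read at 563 RPKM in Q317K, 452 in PITX1, 414 in Q317R, 335 in HOXD13 wt and 226 in the empty vector. The ratios to the empty vector were 2.50 (2.36 to 2.64) in Q317K, 2.00 (1.89 to 2.12) in PITX1, 1.83 (1.73 to 1.94) in Q317R and 1.49 (1.40 to 1.58) in HOXD13 wt. Every factor library was thus above the empty vector by more than counting error, and Q317K was the highest.

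**Figure D4:**
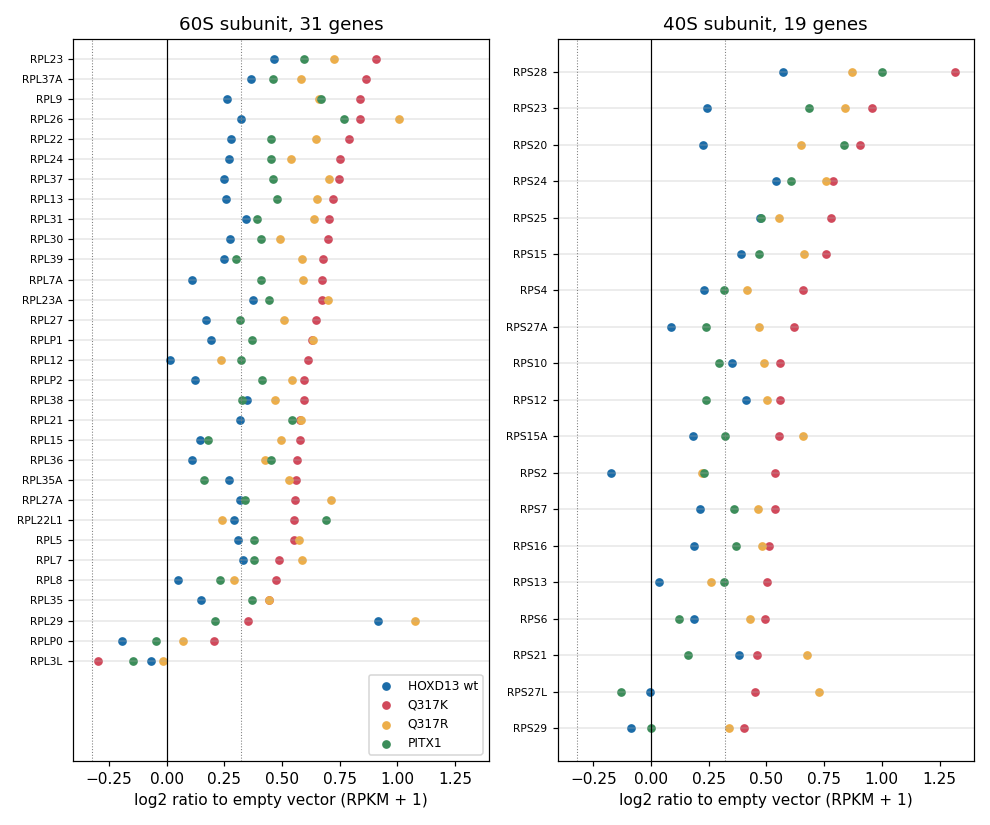
Log2 ratio of each factor library to the empty vector (RPKM + 1) for 31 of the 32 large subunit genes (left) and the 19 small subunit genes (right), ordered by the Q317K ratio; dotted lines mark a level 25% higher and 20% lower. Most points lie to the right of 0, RPS28 reaches 1.32 in Q317K, and RPLP0 and RPL3L stand at the bottom of the large subunit.

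Among the proteins that line the decoding site and the head of the small subunit, RPS23, which bears on the accuracy of decoding, was read at 724 RPKM in Q317K, 668 in Q317R, 599 in PITX1, 441 in HOXD13 wt and 372 in the empty vector. The Q317K level was 1.94 times that of the empty vector (1.86 to 2.03). RPS20, a protein of the head, was read at 198 in Q317K, 189 in PITX1, 166 in Q317R, 123 in HOXD13 wt and 105 in the empty vector. For RPS20 the PITX1 library was near Q317K, with ratios to the empty vector of 1.79 (1.69 to 1.90) and 1.88 (1.77 to 2.00). RPS29, a small zinc-binding protein of the head, was read at 952 in Q317K and 909 in Q317R, against 719 in the empty vector, 718 in PITX1 and 677 in HOXD13 wt. Its PITX1 level did not differ from the empty vector beyond counting error, with a ratio of 0.999 (0.952 to 1.05).

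RPS24 and RPS25, the latter known for a part in translation from internal entry sites, had the highest ratios in HOXD13 wt after RPL29 and RPS28. RPS24 was read at 385 RPKM in Q317K, 378 in Q317R, 340 in PITX1, 325 in HOXD13 wt and 223 in the empty vector. The empty vector was well below the other libraries, which lay close together, and the HOXD13 wt ratio was 1.46 (1.38 to 1.54). RPS25 had a HOXD13 wt ratio of 1.39 (1.30 to 1.48). RPS6, whose phosphorylation by S6 kinase is a common readout of growth signalling, was read at 733 in Q317K, 701 in Q317R, 592 in HOXD13 wt, 566 in PITX1 and 520.5 in the empty vector. Its ratios ran from 1.09 (1.05 to 1.12) in PITX1 to 1.41 (1.37 to 1.45) in Q317K.

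The stalk of the large subunit was uneven. RPLP0 was 0.875 times its empty vector level in HOXD13 wt (0.856 to 0.894), 0.968 in PITX1 (0.948 to 0.989), 1.05 in Q317R (1.03 to 1.07) and 1.15 in Q317K (1.13 to 1.18). RPLP1 and RPLP2, the small acidic proteins that dimerise on it, were shifted more. RPLP1 was read at 852 RPKM in Q317R, 849.8 in Q317K, 709 in PITX1, 628 in HOXD13 wt and 549 in the empty vector. The level of RPLP2 was 352 in Q317K, 339 in Q317R, 310.1 in PITX1, 253 in HOXD13 wt and 232 in the empty vector. Ratios to the empty vector were 1.55 (1.49 to 1.61) for RPLP1 and 1.51 (1.41 to 1.63) for RPLP2 in Q317K. RPL12, at the base of the stalk, was read at 398 in Q317K, 326 in PITX1, 307 in Q317R, 263 in HOXD13 wt and 260.4 in the empty vector, so its HOXD13 wt and empty vector levels did not differ beyond counting error, with a ratio of 1.01 (0.952 to 1.07).

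RPL23, which forms a bridge to the small subunit and binds MDM2 when free, was read at 618 RPKM in Q317K, 545 in Q317R, 498 in PITX1, 455 in HOXD13 wt and 329 in the empty vector. All factor libraries were higher, with ratios from 1.38 (1.31 to 1.45) in HOXD13 wt to 1.88 (1.79 to 1.97) in Q317K. RPL5, which carries the ribosomal 5S RNA and also binds MDM2 when free, was read at 287 in Q317R, 283 in Q317K, 250.4 in PITX1, 239 in HOXD13 wt and 192 in the empty vector. The mutants did not differ beyond counting error for RPL5, with a Q317K to Q317R ratio of 0.984 (0.943 to 1.03). RPL38, needed in mice for the translation of certain Hox mRNAs and for axial patterning, was read at 244 in Q317K, 223 in Q317R, 205 in HOXD13 wt, 202.5 in PITX1 and 161 in the empty vector. The PITX1 to HOXD13 wt ratio of RPL38 was 0.986 (0.903 to 1.08). Its ratio to the empty vector was 1.28 (1.16 to 1.40) in HOXD13 wt and 1.26 (1.15 to 1.38) in PITX1. RPS27A, made as a fusion with ubiquitin, was read at 165 in Q317K, 148 in Q317R, 126 in PITX1, 114 in HOXD13 wt and 107 in the empty vector.

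RPL26, which lies near the exit tunnel, had its highest level in Q317R. It was read at 198 RPKM in Q317R, 177 in Q317K, 168 in PITX1, 123 in HOXD13 wt and 98.3 in the empty vector, and the Q317R ratio to the empty vector was 2.02 (1.82 to 2.24). These values of RPL26 depended on the transcript. In PITX1 the log2 ratio was 0.77 for the one used and 0.24, 0.25 and 0.51 for the 3 other annotated ones. In Q317R it was 1.01 for the one used and 0.76, 0.83 and 0.89 for the others, so only the one used reached 2-fold. In Q317K it was 0.84 for the one used and 0.61, 0.56 and 0.58 for the others.

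RPL29 did not follow the order of the other members. This large subunit protein, known in mammals also as a heparin-binding protein and linked in mice to bone growth, was read at 345 RPKM in Q317R, 309 in HOXD13 wt, 209 in Q317K, 189 in PITX1 and 163 in the empty vector. Q317R and HOXD13 wt were high, and Q317K and PITX1 lay closer to the empty vector. The ratios to the empty vector were 2.11 (1.89 to 2.36) in Q317R, 1.89 (1.69 to 2.12) in HOXD13 wt, 1.28 (1.13 to 1.45) in Q317K and 1.16 (1.02 to 1.31) in PITX1. Its transcript has the shortest recovered length of all members, and the labels do not say how reads matching several places were counted.

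The 3 like-named paralogues differed from each other in their order of libraries. RPS27L, a p53 target in human cells, was read at 339.8 RPKM in Q317R and 279.5 in Q317K, against 205 in the empty vector, 204 in HOXD13 wt and 187 in PITX1. Both mutants were above the empty vector, with ratios of 1.66 (1.51 to 1.83) in Q317R and 1.37 (1.23 to 1.52) in Q317K, while the intervals of HOXD13 wt and PITX1 included 1. RPL22L1, the paralogue of the RNA-binding RPL22, was highest in PITX1, at 42.9 RPKM against 39.0 in Q317K, 32.4 in HOXD13 wt, 31.2 in Q317R and 26.2 in the empty vector. RPL22 itself was highest in Q317K, at 157, with 142 in Q317R, 124 in PITX1, 109.7 in HOXD13 wt and 90.2 in the empty vector. RPL3L, in mammals a form of RPL3 found in striated muscle, stood at 4.33 to 5.55 RPKM, and its intervals included 1 in all 4 comparisons with the empty vector.

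The mutants were also set against the wild-type factor. This comparison does not use the empty vector library, but both use the same HOXD13 wt library. Ribosomal protein mRNAs were higher with either mutant than with HOXD13 wt: the median log2 ratio was 0.43 for Q317K and 0.29 for Q317R, against medians of −0.01 and 0.06 over all genes. With Q317K, 32 members were at least 25% higher and 1, RPL29, was lower, beside 18.7% and 18.4% of 12512 genes. With Q317R, 20 were higher and 0 lower, beside 14.2% and 10.1% of 12646 genes. A log2 ratio above 0 was found for 49 members with Q317K (48.7% of all genes) and for 50 with Q317R (59.3%). By subunit the medians were 0.43 for the large and 0.37 for the small with Q317K, and 0.29 and 0.30 with Q317R.

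The 4 members with the highest Q317K to HOXD13 wt ratio were all of the small subunit. RPS28 was 1.68 times higher (1.60 to 1.76), RPS23 1.64 times (1.58 to 1.71), RPS2 1.64 times (1.60 to 1.67) and RPS20 1.61 times (1.52 to 1.70). RPL29 was at 0.675 of its HOXD13 wt level (0.606 to 0.752), and RPS21 and RPS12 had ratios of 1.06 (0.910 to 1.22) and 1.11 (1.07 to 1.14). In Q317R the highest ratios to HOXD13 wt were those of RPS27L at 1.67 (1.51 to 1.84), RPL26 at 1.61 (1.46 to 1.78), RPS23 at 1.52 (1.46 to 1.58) and RPL7A at 1.40 (1.33 to 1.47). RPS23 was on both lists, and the lowest of Q317R was RPL22L1 at 0.963 (0.801 to 1.16).

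The mutants lay close to each other for most members; this comparison and the next were added after the levels had been seen. The median log2 ratio of Q317K to Q317R was 0.07, against −0.06 over all genes, and 38 members were above 0, beside 42.6%. At these thresholds, RPS28 and RPL12 were higher in Q317K and RPL29 was lower, beside 14.1% and 20.3% of 12536 genes. PITX1 set against HOXD13 wt gave a median of 0.14, against −0.03 over all genes, with 8 members at least 25% higher and RPL29 at least 20% lower, beside 15.3% and 19.0% of 12516 genes. The higher count was close to the share over all genes, and the lower count was below it. A log2 ratio above 0 was found for 42 of the 51 members, beside 45.1% of all genes.

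Transcripts other than the one chosen for each gene were read as well. In 17 of the 51 genes there were 22 further annotated transcripts, which share reads with the chosen one and so are no independent measurement. Against the empty vector, 20 of the 22 had a log2 ratio above 0 with HOXD13 wt and 22 did with each of the other factors. Over all genes, at 1 transcript each, that share was 47.5% with HOXD13 wt, 48.7% with Q317K, 51.8% with Q317R and 45.3% with PITX1. It was not computed over all further transcripts. The medians of the 22 were 0.58 with Q317K, 0.46 with Q317R, 0.30 with PITX1 and 0.18 with HOXD13 wt.

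The rest of the translation machinery was read from lists of named genes, with the members measured at 5 RPKM or more in any library. Elongation factors and related genes had a median log2 ratio to the empty vector of 0.43 in Q317K over 6 genes. Of these, 4 were at least 25% higher and 1, EEF1E1, was at least 20% lower, beside 20.6% and 26.1% of all genes. The medians of the same list were 0.26 in Q317R, 0.05 in PITX1 and −0.15 in HOXD13 wt. EEF1A1, which delivers aminoacyl-tRNA to the ribosome, was read at 3072 RPKM in Q317K, 2572 in Q317R, 2414 in PITX1, 2154 in the empty vector and 2079 in HOXD13 wt. EEF2, which moves the ribosome along the mRNA, was read at 970.3 in Q317K, 766 in the empty vector, 752 in Q317R, 728 in PITX1 and 640.4 in HOXD13 wt. Both were highest in Q317K and lowest in HOXD13 wt, as RPLP0 and RPS2 were.

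Other mRNAs with a TOP tract, over 14 measured genes, had medians of 0.45 in Q317K, 0.25 in Q317R, 0.21 in PITX1 and 0.04 in HOXD13 wt. Several of them are also in other lists used here: 4 of the elongation factors, the initiation factors EIF3E, EIF3F and EIF3H, and the assembly gene NPM1. In Q317K 10 of the 14 were at least 25% higher and 0 at least 20% lower, beside 20.6% and 26.1% of all genes. The scaffold RACK1, a core part of the small subunit that the naming rule leaves out, was read at 1059 RPKM in Q317K, 965 in Q317R, 841 in PITX1, 786 in the empty vector and 759 in HOXD13 wt. Like RPLP0, it was lowest in HOXD13 wt. TPT1, a growth-related TOP mRNA, was read at 403 in Q317K, 324 in Q317R, 293 in HOXD13 wt, 290.1 in PITX1 and 249.6 in the empty vector. The intermediate filament gene VIM, also counted among TOP mRNAs, ran from 206 in Q317R to 831 in PITX1.

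Initiation factors moved less, with medians over 19 genes of 0.24 in Q317K, 0.17 in Q317R, 0.11 in PITX1 and 0.06 in HOXD13 wt. The 56 measured genes of the mitochondrial ribosome, a separate machine inside mitochondria, had medians of 0.20, 0.12, 0.02 and 0.15. At least 25% higher were 15 of them in Q317K, 12 in Q317R, 10 in PITX1 and 11 in HOXD13 wt. The shares of all genes were 20.6%, 20.9%, 17.2% and 20.4%, so the higher counts were near them. Those at least 20% lower were 1, 0, 3 and 1, below the 26.1%, 19.0%, 27.2% and 25.5% of all genes. A log2 ratio above 0 was found for 47, 40, 28 and 39 of the 56, beside 48.7%, 51.8%, 45.3% and 47.5% of all genes. Subunits and partners of RNA polymerase I, which makes ribosomal RNA, had medians over 10 genes of 0.19, 0.06, 0.07 and 0.06.

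Ribosome assembly factors lay near or below the empty vector. Over 32 measured genes their medians were −0.02 in Q317K, −0.13 in Q317R, −0.10 in PITX1 and −0.17 in HOXD13 wt. At least 20% lower than in the empty vector were 4, 7, 6 and 11 of them, beside 26.1%, 19.0%, 27.2% and 25.5% of all genes. At least 25% higher were 4, 0, 2 and 0, beside 20.6%, 20.9%, 17.2% and 20.4%. The lower counts were thus near or below the share of all genes, except in HOXD13 wt, where 11 of 32 lay above it. The higher counts were below it in every library. Set against HOXD13 wt, the assembly factors had a median of 0.26 in Q317K and 0.08 in Q317R. With Q317K 13 of the 32 were at least 25% higher and 0 at least 20% lower, beside 18.7% and 18.4% of all genes. With Q317R the counts were 0 and 0, beside 14.2% and 10.1%. RRP12, a factor of subunit export, was read at 64.5 RPKM in the empty vector, 46.4 in Q317K, 41.8 in PITX1, 32.5 in Q317R and 30.9 in HOXD13 wt. BYSL, which acts in small subunit assembly, was read at 84.5 in the empty vector and between 46.5 and 56.9 in the factor libraries. The nucleolar proteins NPM1 and NCL were higher in Q317K and PITX1: NPM1 was read at 269 and 263 there, against 193 in the empty vector, and NCL at 144 and 139.8, against 105.

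Among 11 measured regulators of growth and of TOP mRNA translation the medians were −0.07 in Q317K, −0.20 in Q317R, −0.14 in PITX1 and −0.17 in HOXD13 wt. MYC, a transcription factor known to raise ribosomal protein genes in other cells, was read at 87.6 RPKM in the empty vector, 79.3 in PITX1, 59.0 in Q317K, 38.0 in Q317R and 36.4 in HOXD13 wt. Its part in the ribosomal protein levels was not tested.

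**Figure D5:**
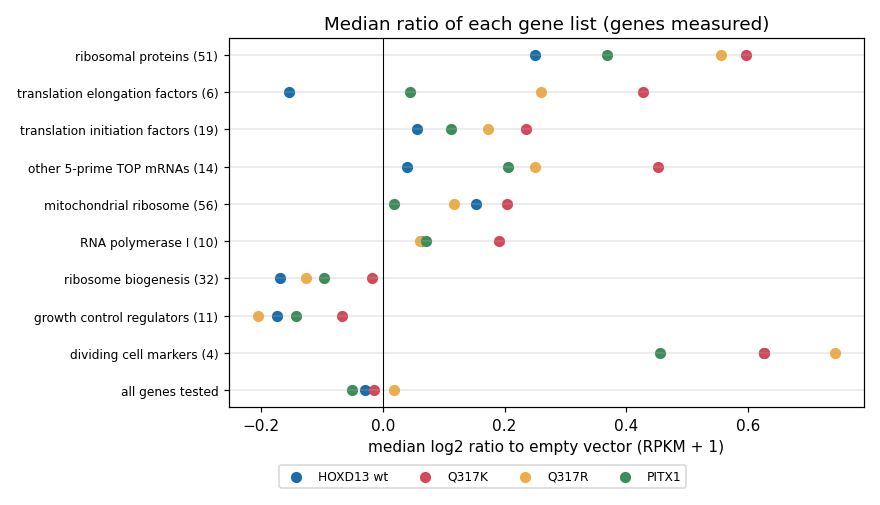
Median log2 ratio to the empty vector (RPKM + 1) of each gene list, with 1 point per factor library and the number of measured genes in brackets; the bottom row is the median over all genes tested. Ribosomal proteins lie at 0.25 to 0.60, ribosome biogenesis at −0.17 to −0.02, and dividing cell markers at 0.46 to 0.74.

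Markers of dividing cells moved in the same direction as the ribosomal protein genes, but in a different order of libraries. Their median log2 ratios were 0.74 in Q317R, 0.63 in Q317K, 0.63 in HOXD13 wt and 0.46 in PITX1. All 4 that were measured, MKI67, TOP2A, CDK1 and PCNA, were at least 25% higher than in the empty vector in each factor library, beside 4.20% of all genes. Their summed level was 94.3 RPKM in the empty vector, 142 in PITX1, 143 in HOXD13 wt, 159.8 in Q317R and 161 in Q317K. Cartilage markers moved the other way by the summed levels given above, but most of each sum was COL2A1. It gave 15370 of 18023 RPKM in the empty vector and 11296 of 13533 in Q317R. All 6 markers were at least 20% lower than in the empty vector in HOXD13 wt, Q317K and PITX1, beside 25.5%, 26.1% and 27.2% of all genes. In Q317R 4 were at least 20% lower and 1, COL9A1, was at least 25% higher, beside 19.0% and 20.9%. By library, the cartilage marker sum and the ribosomal protein median were 2382 RPKM and 0.60 in Q317K and 4094 and 0.37 in PITX1. They were 5097 and 0.25 in HOXD13 wt and 13533 and 0.56 in Q317R. Markers of other cells were low, with summed levels of 39.1 to 92.5 RPKM for skeletal muscle (4 of 5 measured), 11.5 to 13.9 for endothelium (2 of 4) and 23.8 to 41.8 for epithelium (2 of 4). Red cell markers (2 of 5) summed to 12.4 to 20.9 RPKM except in PITX1, where they reached 868, mostly from the globin HBE. The sums also include listed genes found below 5 RPKM, so that of epithelium covers 3 genes and that of red cells 4. The part of these cell types in the ribosomal protein levels was not tested.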

How the data were processed

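Chicken micromass cultures were sequenced as 115 bp single reads from oligo-dT-selected mRNA, per the labels' protocols. Per the file headers, the authors deposited 1 RPKM value per library for each of 21998 Ensembl transcripts; aligner, counter and annotation are not given in the labels. The column headed with the German word for empty was taken as the empty vector. Whole reads, lengths and library totals were recovered from ratios between columns: 100% of rows came out whole within 0.001, although a few rows may be too small by a common factor. Libraries were compared as log2 ratios of RPKM + 1 among genes with at least 5 RPKM in either library, counted at 25% higher or 20% lower and at 2-fold; ratios of single genes are of RPKM with exact (Clopper-Pearson) intervals. Reads are not independent molecules. No tests between conditions were made, since each group had 1 library. UniProt labels of 53 list genes were translated by hand. Members and gene lists were chosen with earlier results of these data known. Named genes were the 6 highest and 6 lowest members, the 4 of highest and lowest ratio in each comparison, the 6 widest and 3 narrowest ranges, the stalk proteins, a few members of known role, and up to 4 of each list; others were chosen after their values were seen. A few genes that this rule names are not reported here; they stay in the counts and medians. Tried in their place were a pseudocount of 0.1, no minimum, the longest transcript, median-ratio size factors, and leaving out the like-named paralogues or the 20 highest other genes. The 4 peak lists were not used. Steps were tested on simulated data. Scripts used Python 3.11.15, numpy 2.4.6, pandas 2.3.3, scipy 1.17.1 and matplotlib 3.10.9.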

Additional observations from a re-analysis of the deposited data

Results flagged for a closer look

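For 3 members the factor libraries lay on opposite sides of the empty vector by more than counting error; with 1 library each, the difference between the factors was not tested. RPLP0 had a log2 ratio of −0.19 in HOXD13 wt and −0.047 in PITX1, but 0.20 in Q317K and 0.072 in Q317R. RPS2 was at −0.17 in HOXD13 wt and at 0.54 in Q317K, 0.22 in Q317R and 0.23 in PITX1. RPS29 was at −0.088 in HOXD13 wt, 0.40 in Q317K and 0.34 in Q317R.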

How the results depend on the processing

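No paired analysis was possible because each virus had 1 RNA library. For the same reason no replicate could be left out. With a pseudocount of 0.1, RPL3L became 1 member at least 20% lower in Q317K than in the empty vector, against 0 in the main result; the other 17 medians and counts kept their direction and stayed close to their values. The log2 size factors of compared libraries differed by −0.03 to 0.06, and scaling moved the ratios by about as much in the opposite direction. For Q317R against HOXD13 wt the median fell from 0.29 to 0.23, and members at least 25% higher became 14 in place of 20. Against the empty vector, such members became 37 in place of 30 for PITX1, 18 in place of 14 for HOXD13 wt and 42 in place of 44 for Q317R. The shares of all genes at this threshold were not computed after scaling. The median over all genes moved as well, from 0.06 to −0.005 for Q317R against HOXD13 wt. No other count changed by more than 2 under size factors, the longest transcript or the lack of a minimum level, or without the like-named paralogues, and every median kept its direction. The share of reads on ribosomal protein genes moved beyond its counting interval with the genes included. Without the 20 highest other genes it was 2.14% in Q317K, 1.98% in Q317R, 1.76% in PITX1, 1.67% in HOXD13 wt and 1.45% in the empty vector. With the longest transcript of each gene it was 1.83%, 1.70%, 1.52%, 1.37% and 1.24%. The order of the libraries was the same in both. The table lists rows above 0 in every library, the lowest at 0.0727 RPKM.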
